A study of Mus musculus with 6 samples.

Results

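The T cell receptor constant region genes encode the parts of the receptor chains that do not vary between clones. The 7 genes described here were taken by symbol from the 32227 features of the deposited tables. They are Trac for the alpha chain, Trbc1 and Trbc2 for the beta chain, Trdc for the delta chain, and Trgc1, Trgc2 and Trgc4 for the gamma chain. A mature T cell carries either an alpha-beta or a gamma-delta receptor, and each chain is made by joining variable and joining segments upstream of a constant gene. In the thymus the beta, gamma and delta loci are rearranged before the alpha locus, while Dntt, the enzyme that adds bases at the joins, is active. The delta locus lies inside the alpha locus, so that joining of an alpha variable segment removes Trdc from that chromosome.

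Single-cell RNA was read with PIPseq, a droplet method that tags the ends of transcripts with unique molecular identifiers (UMIs), in 6 libraries of C57BL/6 mice. Each of thymus, spleen and subcutaneous B16-OVA melanoma gave 1 library labelled Pdcd1fl/fl and 1 labelled Pdcd1 cKO, all from adult mice more than 8 weeks old. CD8 T cells of thymus and spleen were purified from untreated mice, and CD8 tumor-infiltrating cells were purified with beads on day 12 after tumor injection. Each thymic or splenic library held cells of 1 mouse, and each tumor library pooled cells of 3 mice. Pdcd1 cKO mice were Pdcd1fl/fl animals with the E8I CD8-Cre transgene, which is active in CD8 cells after positive selection. The controls carried the same floxed alleles without Cre.

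A barcode was kept as a cell when it held 500 or more genes and 1000 or more UMIs, with no more than 20% of them mitochondrial. In the thymus this left 1067 cells of the library labelled Pdcd1fl/fl and 2635 cells of the library labelled Pdcd1 cKO, with medians of 4361 and 5417 UMIs per cell. The splenic libraries kept 1478 and 4928 cells with medians of 1320.5 and 1615 UMIs. For the Pdcd1fl/fl label that was only 21.3% of the deposited splenic barcodes, against 99.3% for the Pdcd1 cKO label. The tumor libraries kept 456 and 561 cells with medians of 13809.5 and 9510 UMIs. Total UMIs of the kept cells ran from 2220981 in the Pdcd1fl/fl-labelled spleen to 19143524 in the Pdcd1 cKO-labelled thymus. Only 2 barcodes were shared between libraries, both by the splenic pair, and doublets were not removed.

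Pdcd1, the gene that the genotype deletes, is given first as the check of the labels. Levels are in CPM, the UMIs of a gene scaled to the same total of UMIs in each library. Pdcd1 had 12 UMIs (1.88 CPM) in the thymus labelled Pdcd1fl/fl and 131 (6.84 CPM) in the thymus labelled Pdcd1 cKO. The splenic libraries had 1 UMI (0.450 CPM) and 104 UMIs (11.7 CPM), and the tumor libraries 717 (76.4 CPM) and 808 (102 CPM). Pdcd1 RNA was thus higher under the Pdcd1 cKO label in thymus (log2 ratio 1.87, 95% interval 1.01 to 2.85) and spleen (4.69, 2.18 to 10.01), against the labels. In tumors it was not lower either (0.42, 0.27 to 0.56), and among tumor cells with CD8 UMIs the ratio was 0.10 (-0.05 to 0.25). The study reports loss of Pdcd1 in this model by flow cytometry, which the count tables cannot show. It also reports more thymic CD8 cells with the cytotoxic proteins of Nkg7, Gzmb and Prf1 in the knockout. In thymic cells with CD8 UMIs the RNA ratios of these genes ran the way of the labels, at 0.42 (0.33 to 0.52) for Nkg7, 2.69 (1.79 to 3.77) for Gzmb and 1.63 (0.93 to 2.41) for Prf1. In those without Dntt they were -0.11 (-0.23 to 0.01), 1.95 (0.87 to 3.29) and 0.96 (0.14 to 1.91). Which part of Pdcd1 is deleted was not given in the sources used here, and the tables do not separate its exons. Every direction below therefore follows the labels as deposited, with the library labelled Pdcd1 cKO over the library labelled Pdcd1fl/fl.

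With 1 library per group there are no replicates, and no test was made. Levels carry exact Poisson intervals, log2 ratios exact conditional binomial intervals and shares exact Clopper-Pearson intervals, all at 95%. For a count of 0 the limit given is that of 3 counts of the total, which is 1-sided and lower than the upper end of a 95% interval. All of these cover counting error only, since UMIs of a cell are not independent and variation between mice was not measured. The T cell marker list (Cd3d, Cd3e, Cd3g, Cd8a, Cd8b1 and Cd4, 6 of 6 read in each library) summed to 2465 and 2493 CPM in thymus, 2598 and 3358 CPM in spleen, and 1260 and 2581 CPM in tumors, with the Pdcd1fl/fl label given first here and below. Its most abundant gene was Cd3g in both thymic libraries and Cd3d in the others. Cd4, the coreceptor of the other main alpha-beta lineage, had 6 and 49 UMIs in thymus, 2 and 32 in spleen, and 24 and 16 in tumors.

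The genotype comparison sets the library labelled Pdcd1 cKO beside the one labelled Pdcd1fl/fl in each tissue, in none of which Pdcd1 RNA was lower under the former. Across the set, the alpha chain gene Trac was higher under the Pdcd1 cKO label in all 3 tissues. The beta chain genes split, with Trbc2 higher in spleen and tumor and Trbc1 little different. Delta and gamma genes were abundant in both thymic libraries and rare in the other 4, where Trgc2 had the most UMIs of the 4 genes in each library but the spleen labelled Pdcd1fl/fl, in which Trdc had more. The 7 genes together took 0.400% and 0.371% of the UMIs in thymus, 0.181% and 0.247% in spleen, and 0.133% and 0.214% in tumors.

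Trac was read at 127 CPM (119 to 136) and 241 CPM (234 to 248) in thymus. In spleen it was read at 382 CPM (357 to 409) and 570 CPM (555 to 586). Tumor libraries held 138 CPM (131 to 146) and 331 CPM (318 to 344). Trac was therefore highest in spleen under either label and lower in thymus and tumor, where the 2 libraries labelled Pdcd1fl/fl differed little from each other. Its log2 ratio between the labels was 0.92 (0.81 to 1.03) in thymus, 0.58 (0.47 to 0.68) in spleen and 1.26 (1.16 to 1.35) in tumors. The thymic ratio differed among the kinds of cells, and was -0.19 (-0.51 to 0.15) among cells with Dntt and without CD8 UMIs, but 0.52 (0.35 to 0.68) among cells with CD8 and without Dntt. After each cell was thinned to 1000 UMIs, which no kept cell fell short of, Trac was found in 13.3% and 21.9% of thymic, 28.6% and 41.9% of splenic, and 16.01% and 32.4% of tumor cells. Without thinning the shares were 37.5%, 56.7%, 37.5%, 57.1%, 67.3% and 87.2% in the same order.

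Trbc1, the upstream of the beta constant genes, was read at 1353 CPM (1325 to 1382) and 1290 CPM (1274 to 1306) in thymus. Spleen held 559 CPM (528 to 591) and 611 CPM (595 to 627), and tumors 477 CPM (463 to 491) and 462 CPM (447 to 477). The thymic libraries stood clearly above the other 4, and within each tissue the labels lay close together. Trbc1 ratios were -0.07 (-0.10 to -0.03) in thymus, 0.13 (0.04 to 0.22) in spleen and -0.05 (-0.11 to 0.02) in tumors, and the sign changed with the scaling in each tissue. Scaled by the median ratio of all genes, they became 0.00, -0.05 and 0.18.

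Trbc2, the downstream copy, was read at 2010 CPM (1975 to 2045) and 1728 CPM (1709 to 1747) in thymus. In spleen it had 855 CPM (817 to 894) and 1252 CPM (1229 to 1276), and in tumors 713 CPM (696 to 730) and 1336 CPM (1311 to 1362). Under the Pdcd1fl/fl label thymus was far above spleen and tumor, while under the Pdcd1 cKO label the 3 tissues were closer. The log2 ratio was -0.22 (-0.25 to -0.19) in thymus, 0.55 (0.48 to 0.62) in spleen and 0.91 (0.86 to 0.95) in tumors, with the same signs under the median of gene ratios (-0.15, 0.38 and 1.13) and without mitochondrial, ribosomal protein and Malat1 UMIs (-0.04, 0.41 and 0.91). Thinned shares of cells with Trbc2 were 76.4% and 72.5% in thymus, 49.5% and 63.5% in spleen, and 46.9% and 69.2% in tumors.

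Trdc was read at 174 CPM (164 to 184) and 142 CPM (137 to 147) in thymus. Spleen gave 13 UMIs (5.85 CPM, 3.12 to 10.01) and 86 UMIs (9.64 CPM, 7.71 to 11.9). Each tumor library gave 4 UMIs, or 0.426 CPM (0.116 to 1.09) and 0.505 CPM (0.137 to 1.29). Delta chain RNA was thus a thymic signal in this series, and in tumors it was close to the limit of 3 UMIs used as the floor. The thymic ratio was -0.29 (-0.39 to -0.19), and it was 0.20 (0.05 to 0.35) among cells with Dntt and without CD8. In spleen (0.72, -0.13 to 1.69) and tumor (0.24, -2.18 to 2.67) no difference was detectable at this depth.

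Among the gamma chain genes, Trgc1 was read at 127 CPM (119 to 136) and 127 CPM (122 to 132) in thymus. It had 0 and 38 UMIs in spleen and 3 and 1 UMIs in tumors. Trgc1 showed no detectable difference between the thymic libraries (-0.01, -0.12 to 0.11). In spleen 38 UMIs (4.26 CPM, 3.01 to 5.84) lay 1.66 on the log2 scale above the 3 UMIs (1.35 CPM) set for a count of 0. For 38 against 0 UMIs, the exact conditional interval of the log2 ratio began at 1.29. Trgc2 was read at 146 CPM (137 to 156) and 142 CPM (137 to 147) in thymus, 9 UMIs (4.05 CPM, 1.85 to 7.69) and 129 UMIs (14.5 CPM, 12.1 to 17.2) in spleen, and 22 UMIs (2.35 CPM, 1.47 to 3.55) and 81 UMIs (10.2 CPM, 8.12 to 12.7) in tumors. It was the gamma gene that remained measurable in all 6 libraries, and it was higher under the Pdcd1 cKO label in spleen (1.83, 0.87 to 2.996) and tumor (2.12, 1.43 to 2.87) but not detectably in thymus (-0.04, -0.15 to 0.07). Trgc4 was read at 62.9 CPM (56.9 to 69.4) and 45.4 CPM (42.4 to 48.5) in thymus, with 3 and 61 UMIs in spleen and 3 and 3 UMIs in tumors. It was lower under the Pdcd1 cKO label in thymus (-0.47, -0.64 to -0.30) and higher in spleen (2.34, 0.72 to 4.66), and its tumor counts allow no fold.

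The splenic gamma ratios changed with the filter on cells. When only cells with at least 1000 genes, 2000 UMIs and at most 10% mitochondrial UMIs were kept, 81 cells remained under the Pdcd1fl/fl label and 865 under the Pdcd1 cKO label. The splenic ratio of Trgc2 was then -0.42 and that of Trgc4 -1.27, both without intervals. With all deposited barcodes these ratios were 2.96 and 3.75. Before the stricter filter the library labelled Pdcd1fl/fl held 9 UMIs of Trgc2 in 4 cells and 3 UMIs of Trgc4 in 2 cells. The stricter ratios rest on at most these UMIs under that label, and a change of direction is not shown.

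**Figure D1:**
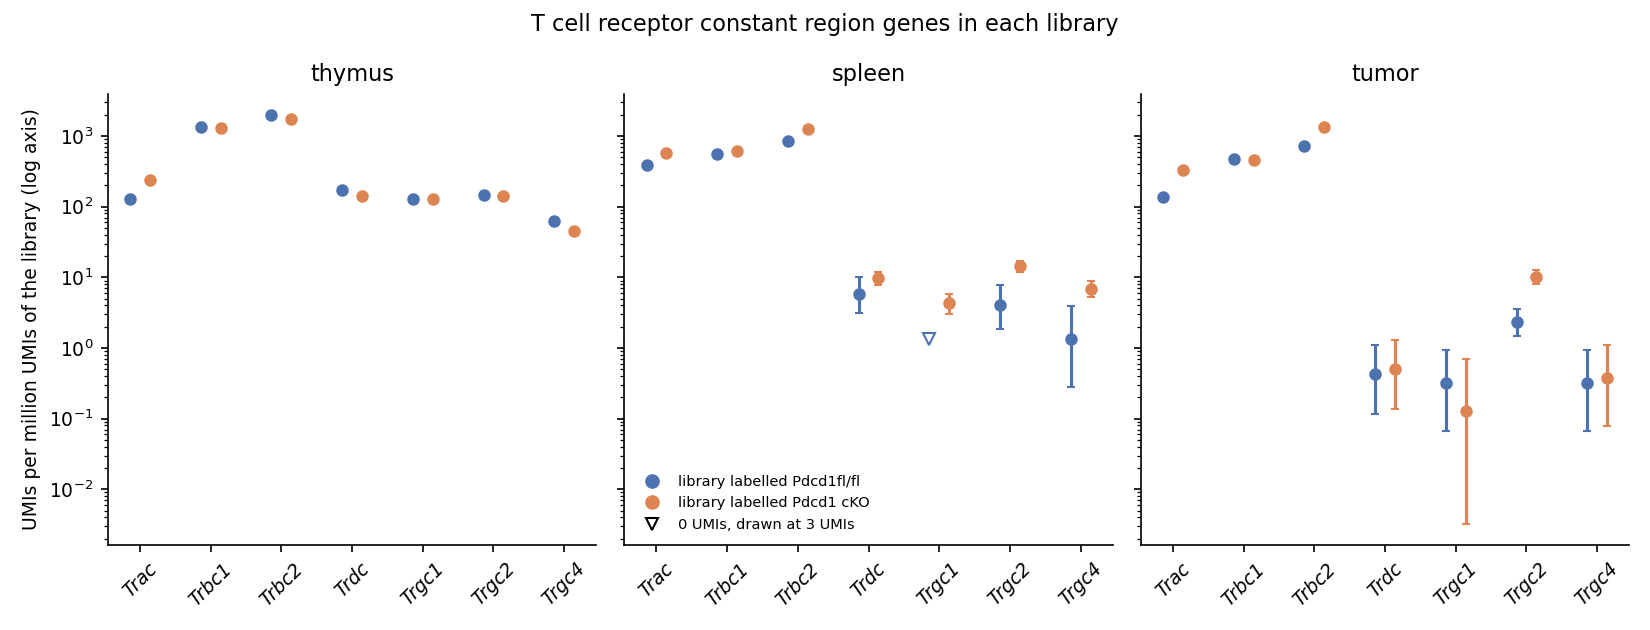
Level of each constant region gene in each library, in CPM on a log axis, with 95% Poisson intervals that are smaller than the points for the abundant genes. Trdc, Trgc1, Trgc2 and Trgc4 lie between 45.4 and 174 CPM in thymus and at or below 14.5 CPM in spleen and tumor, and the open triangle marks 0 UMIs drawn at the level of 3 UMIs.

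Counted at 2-fold, no member of 7 passed in thymus in either direction, where 3.5% of 10380 genes with at least 100 UMIs were higher and 4.09% lower by that much. Trac passed there with the stricter cell filter (1.03) and with totals that leave out mitochondrial, ribosomal protein and Malat1 UMIs (1.10). In spleen 3 of 7 members were higher (Trgc1, Trgc2 and Trgc4) and 0 lower, but only Trgc2 of these had the 100 UMIs that the background asks for. Among the 4 members that did, 1 was higher, beside 4.58% of 7843 genes higher and 0.689% lower. In tumors 2 of 5 members with a fold were higher (Trac and Trgc2) and 0 lower, and the same 2 were the ones past 2-fold among the 4 members with at least 100 UMIs. There 3.9% of 9035 genes were higher and 7.56% lower. The median log2 ratio of members with at least 100 UMIs was -0.07 in thymus, 0.56 in spleen and 1.08 in tumors, beside -0.08, 0.16 and -0.22 for all genes with as many UMIs.

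Scaling by the median of gene ratios took 0.17 (log2) off each ratio in spleen and -0.22 in tumors, so that splenic ratios became lower and tumor ratios higher. Leaving out mitochondrial, ribosomal protein and Malat1 UMIs took off -0.18 in thymus and 0.14 in spleen. Relative to the median gene, Trac was higher under the Pdcd1 cKO label by 0.99 in thymus, 0.40 in spleen and 1.48 in tumors. On that scale Trgc2 gave 0.03, 1.66 and 2.35. Trbc1 flipped in each tissue, and Trgc1 and Trgc2 in thymus flipped to 0.07 and 0.03, whereas Trdc and Trgc4 in thymus stayed at -0.22 and -0.40.

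In tumors the levels of other cell types moved with these results, and their part in the ratios was not tested. Sums of the B cell list are left out of this account in each tissue. The melanocyte list (Pmel, Mlana, Dct, Tyrp1 and Tyr, 5 of 5 read) summed to 8636 CPM under the Pdcd1fl/fl label, led by Dct, and to 4809 CPM under the Pdcd1 cKO label, led by Pmel. The macrophage list (6 of 6 read, led by Lyz2) summed to 315 and 610 CPM, and the connective tissue list (5 of 5 read) to 209 CPM, led by Col1a2, and 22.2 CPM, led by Aebp1. The antigen-presenting list (4 of 4 read, led by Cd74) summed to 1291 and 2768 CPM. Among tumor cells with at least 1 UMI of Cd8a or Cd8b1, Trac was read at 177 and 360 CPM (1.02, 0.92 to 1.12), and Trgc2 at 3.30 and 11.4 CPM (1.79, 1.10 to 2.55). In the same cells Trbc2 was read at 961 and 1478 CPM (0.62, 0.58 to 0.67), and Trbc1 at 648 and 508 CPM (-0.35, -0.42 to -0.29). Trac and Trgc2 were thus past 2-fold in CD8-expressing tumor cells as well, Trac with an interval that reached below 2-fold, and Trbc1 was lower there. At least 10 melanocyte UMIs were read in 149 and 63 of all tumor cells, but only 76 and 21 cells held them without a CD8 UMI. Cells with CD8 UMIs thus included cells with melanocyte RNA, whose part in these ratios was not tested. In thymus the connective tissue list (5 of 5 read, led by Dcn) was lower under the Pdcd1 cKO label, at 69.95 and 22.7 CPM. The antigen-presenting list (4 of 4) summed there to 23.2 CPM, led by H2-Ab1, and 40.6 CPM, led by Cd74, and the erythroid list, led by Hbb-bs, to 0.156 CPM (1 of 3 read, Hba-a1 and Hba-a2 at 0) and 7.21 CPM (3 of 3). Their part in the thymic ratios was not tested either. In spleen lists of other lineages were higher under the Pdcd1 cKO label too, and their part in the splenic ratios was not tested. The granulocyte progenitor list summed to 1.80 CPM (1 of 4 read, with Elane, Mpo and Ctsg at 0) and 75.6 CPM (4 of 4, led by Mpo), and the antigen-presenting list (4 of 4, led by Cd74) to 3.15 and 76.3 CPM. The erythroid list, led by Hbb-bs, summed to 0.901 CPM (2 of 3 read, Hba-a1 at 0) and 26.3 CPM (3 of 3). The connective tissue list summed to 1.35 CPM (2 of 5 read, led by Col1a2, with Dcn, Col1a1 and Aebp1 at 0) and 8.96 CPM (5 of 5, led by Col3a1). The macrophage list, led by Cd68, summed to 2.70 CPM (2 of 6 read) and 9.97 CPM (4 of 6). The natural killer cell list, led by Klra8, summed to 9.01 CPM (2 of 3 read) and 17.8 CPM (3 of 3). Among splenic cells with CD8 UMIs, Trac (0.59), Trbc2 (0.49) and Trgc2 (2.01) were higher as in all cells. Trgc1 and Trgc4 had 0 UMIs there under the Pdcd1fl/fl label against 29 and 54, which lay 0.87 and 1.76 above the floor of 3 UMIs. For these counts against 0 UMIs, the exact conditional intervals of the log2 ratio began at 0.47 and 1.41.

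Cells of another lineage were read as a background, in which free RNA and doublets were not told apart. In the tumor labelled Pdcd1fl/fl, 76 cells with at least 10 melanocyte UMIs and no CD8 UMI (median 23565 UMIs) held Trac at 8.51 CPM, Trbc1 at 28.5 CPM and Trbc2 at 34.9 CPM, with 0 UMIs of Trdc, Trgc2 and Trgc4 and 1 of Trgc1. In the tumor labelled Pdcd1 cKO, 21 such cells (median 31089 UMIs) held 21.1, 42.2 and 78.0 CPM of Trac, Trbc1 and Trbc2 and 0 UMIs of the delta and gamma genes. These alpha and beta levels were well under those of whole libraries, but unthinned they put Trac into 19.7% and 52.4% of melanocyte-list cells. After thinning the Trac shares were 0 of 76 cells, which allows up to 3.95%, and 4.76% of 21 cells. Macrophage-list cells, 20 (median 8746 UMIs) and 14 (median 6501.5 UMIs), held Trac at 10.7 and 54.5 CPM and no delta or gamma UMI. In the tumor labelled Pdcd1fl/fl 2 connective tissue cells (median 88116 UMIs) held Trac at 17.0 CPM and Trbc2 at 22.7 CPM. Against these, the single B cell-list cell of the tumor labelled Pdcd1 cKO (17971 UMIs) held Trac at 501 CPM (9 UMIs) and Trbc2 at 612 CPM (11 UMIs), above the Trac level of its library. Whether it was a doublet was not tested. In the thymus only 2 and 4 connective tissue cells and 3 B cell-list cells met the same rule, and in spleen 4 B cell-list cells and 1 granulocyte progenitor cell of the library labelled Pdcd1 cKO. The background could therefore not be measured with precision outside the tumors, and a low thymic background is not shown. The 4 splenic B cell-list cells (median 5575 UMIs) held 0 UMIs of the delta and gamma genes. The thymic connective tissue cells (medians 3450.5 and 4040.5 UMIs) held 1 and 0 UMIs of Trdc, 0 and 2 of Trgc2, 0 and 5 of Trbc1 (0 and 243 CPM) and 2 and 7 of Trbc2 (290 and 340 CPM, in 2 of 2 and 3 of 4 cells), and the 3 thymic B cell-list cells (median 34721 UMIs) held 26 UMIs of Trdc and 241 of Trbc2.

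The other genes of the receptor pathway were read from lists of 28 genes. In the list of receptor complex and pre-receptor genes, 0 of 12 genes with at least 100 UMIs passed 2-fold in thymus and 0 of 9 in spleen, with Cd8a (0.77) and Cd8b1 (0.68) the highest and Ptcra (-0.58) and Cd3d (-0.04) the lowest. In tumors 7 of 10 were higher, led by the CD3 chain Cd3g at 1.27 (1.21 to 1.34), and 1 was lower, the pre-receptor alpha chain Ptcra, with 121 and 3 UMIs (-5.09, -7.39 to -3.51). The 121 Ptcra UMIs lay in 12 cells, 78 of them in a single cell. Among tumor cells with CD8 UMIs, an alternative chosen after the data were seen, 0 genes of this list were higher by 2-fold, though Lat reached 0.98 (0.85 to 1.11) and Cd3g 0.96 (0.90 to 1.03), and Ptcra was still lower (-5.36, -7.66 to -3.78). The gamma-delta programme list had 2 of 4 genes higher in thymus, the transcription factors Maf (2.02, 1.56 to 2.51) and Zbtb16 (1.40, 0.63 to 2.29), with Etv5 lowest at -0.60. In spleen Maf (2.54, 1.64 to 3.62) was 1 of 2 past 2-fold, with Cd163l1, listed as Scart1, at 0.39. In tumors Etv5 (-1.27, -1.95 to -0.63) was lower, and Maf, the other gene with enough UMIs, was at -0.94. Of the maturation list, 0 of 6 genes passed in thymus, where the homing receptor Ccr7 was highest at 0.97 and Cd24a lowest at -0.06. None of 4 passed in spleen, where S1pr1 was lowest at -0.54. In tumors Ccr7 (-1.77) and Klf2 (-1.44) were 2 of 4 lower, and Il2ra was highest at 0.42.

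Within the thymus, cells were split by Dntt (0 UMIs, or 1 or more) and by the sum of Cd8a and Cd8b1 (0 UMIs, or 1 or more), which asks how the members sort along thymocyte maturation. The split itself uses Dntt and CD8, so these are no result. Trac was low in Dntt cells without CD8 and high in CD8 cells without Dntt, the delta and gamma genes ran the opposite way, and the beta genes varied less. Both thymic libraries showed this order.

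Cells with Dntt and without CD8 were 387 (median 4808 UMIs) and 658 (median 5836.5 UMIs), or 36.3% and 25.0% of the thymic libraries. Cells with both were 349 (median 6090) and 797 (median 6491), or 32.7% and 30.2%. Cells with CD8 and without Dntt were 240 (median 3500.5) and 956 (median 4905), or 22.5% (20.02 to 25.1) and 36.3% (34.4 to 38.2). Cells with neither were 91 (median 3448) and 224 (median 3875.5), or 8.53% and 8.50%. The library labelled Pdcd1 cKO thus held a larger share of CD8 cells without Dntt and a smaller share of Dntt cells without CD8.

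From Dntt cells without CD8, over cells with both, to CD8 cells without Dntt, Trac went from 48.9 to 110 to 364 CPM under the Pdcd1fl/fl label. Under the Pdcd1 cKO label it went from 43.0 to 187 to 520 CPM. Cells with neither gene held 143 and 295 CPM. Trac was thus lower in Dntt cells without CD8 than in CD8 cells without Dntt by log2 ratios of -2.89 (-3.21 to -2.59) and -3.60 (-3.79 to -3.40). With cells sorted into the same classes after thinning, the ratio under the Pdcd1fl/fl label was -2.17.

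Trbc1 held 1306, 1492 and 1074 CPM along the same order under the Pdcd1fl/fl label and 1455, 1396 and 968 CPM under the Pdcd1 cKO label. Trbc2 held 2001, 2213 and 1624 CPM, and 1731, 1934 and 1520 CPM. Both beta genes were read in each class and were lower in CD8 cells without Dntt than in both Dntt classes, with log2 ratios of Dntt cells without CD8 over CD8 cells without Dntt of 0.28 and 0.59 for Trbc1 and of 0.30 and 0.19 for Trbc2. In cells with neither Dntt nor CD8, Trbc1 held 1373 and 1240 CPM and Trbc2 1593 and 1230 CPM.

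Trdc held 211, 187 and 45.7 CPM along the order under the Pdcd1fl/fl label. Under the Pdcd1 cKO label it held 243, 144 and 35.1 CPM. It was higher in Dntt cells without CD8 than in CD8 cells without Dntt by 2.21 (1.76 to 2.69) and 2.79 (2.56 to 3.02), and with classes set after thinning the former was 1.60. Trgc1 fell along the order from 196 to 103 to 31.2 CPM and from 263 to 99.9 to 27.9 CPM, with ratios of 2.65 (2.12 to 3.24) and 3.24 (2.99 to 3.495). Trgc2 held 203, 135 and 49.9 CPM, and 280, 107 and 52.9 CPM, with ratios of 2.02 (1.59 to 2.48) and 2.41 (2.22 to 2.60). Each of these gamma genes was thus lowest in CD8 cells without Dntt, with intervals that did not overlap those of the Dntt classes. Trgc4 held 87.3, 58.3 and 12.5 CPM, and 87.2, 37.6 and 13.8 CPM, with ratios of 2.81 (1.97 to 3.78) and 2.65 (2.29 to 3.03). Cells with neither Dntt nor CD8 held Trdc at 167 and 124 CPM, Trgc1 at 118 and 95.04 CPM, Trgc2 at 121 and 104 CPM and Trgc4 at 71.3 and 37.6 CPM, above the CD8 cells without Dntt in both libraries.

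**Figure D2:**
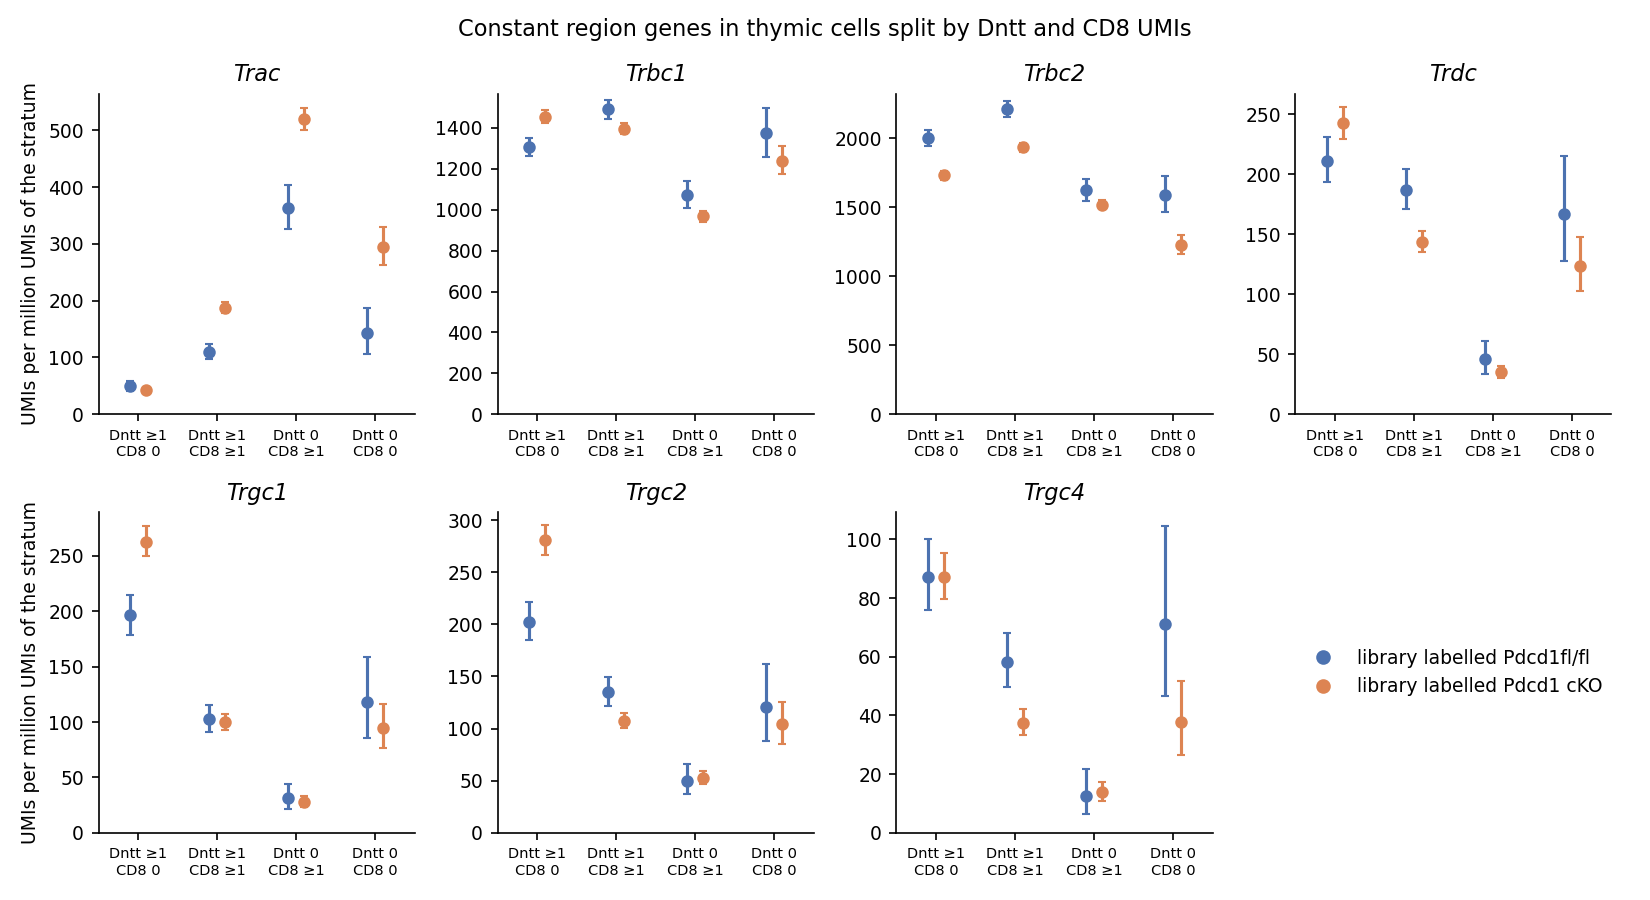
Level of each constant region gene in 4 classes of thymic cells set by Dntt and CD8 UMIs, in CPM of the class, with 95% Poisson intervals and the library labels in color. Trac runs from 48.9 and 43.0 CPM in Dntt cells without CD8 to 364 and 520 CPM in CD8 cells without Dntt, and Trdc, Trgc1, Trgc2 and Trgc4 are lowest in the latter.

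At 2-fold, 4 of 7 members were higher in Dntt cells without CD8 than in CD8 cells without Dntt and 1 was lower, in each library. Under the Pdcd1fl/fl label 9.3% of 4515 genes were higher and 9.59% lower, and under the Pdcd1 cKO label 13.5% of 8083 genes were higher and 6.72% lower. The member medians were 2.01 and 2.41, beside 0.07 and 0.26 for all genes. Of the maturation list, Ccr7 (-3.26 and -4.47), Klf2 (-2.86 and -3.17) and S1pr1 (-2.57 and -3.02) were lower, and Cd24a (1.64 and 2.64) and Il2ra (1.87 and 2.73) were higher, of 6 genes. The receptor list had 1 of 11 genes higher and 3 lower, and 3 of 12 higher and 2 lower, counts that include Dntt, Cd8a and Cd8b1. Outside these, Cd247 (-1.01) was lower under the Pdcd1fl/fl label, and Ptcra (3.32) and Rag1 (2.44) were higher under the Pdcd1 cKO label. Of the gamma-delta programme, 0 of 8 and 1 of 8 genes had 100 UMIs, the latter being Maf at -0.80.

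The member ratios between labels differed from class to class. In Dntt cells without CD8, Trgc1 (0.42, 0.27 to 0.58) and Trgc2 (0.47, 0.32 to 0.62) were higher under the Pdcd1 cKO label. In cells with both Dntt and CD8, Trdc (-0.38, -0.53 to -0.22), Trgc2 (-0.33, -0.51 to -0.14) and Trgc4 (-0.63, -0.92 to -0.34) were lower, and Trac (0.77, 0.59 to 0.95) was higher. In cells with neither, Trac was higher (1.05, 0.62 to 1.503), and Trgc4 (-0.92, -1.68 to -0.14) and Trbc2 (-0.37, -0.52 to -0.23) were lower. In CD8 cells without Dntt the intervals of Trdc, Trgc1, Trgc2 and Trgc4 all included 0, at -0.38, -0.16, 0.08 and 0.15.

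UMIs of both receptor classes were read under the same cell barcode, which need not mean that the cell made both. A cell counted as positive for both when it held at least 1 UMI of Trac, Trbc1 or Trbc2 and at least 1 UMI of Trdc, Trgc1, Trgc2 or Trgc4 after thinning. In thymus 29.7% (27.0 to 32.6) of 1067 cells and 25.2% (23.5 to 26.9) of 2635 cells did. Splenic shares were 0.541% (0.234 to 1.06) and 2.66% (2.23 to 3.15), and tumor shares 0.658% (0.136 to 1.91) and 2.14% (1.11 to 3.71). UMIs of both classes thus met far more often in thymic than in splenic or tumor cells under either label. The beta, delta and gamma genes were more abundant in the thymic libraries than in spleen or tumor, but Trac was not. The part of free RNA in these shares was not tested, and it was not measured in thymus. Unthinned shares were 68.6% and 62.0% in thymus, 0.947% and 4.69% in spleen, and 4.17% and 8.38% in tumors. When at least 2 UMIs of each class were asked for, 50.6% and 40.5% of unthinned thymic cells still passed. With Trdc as the only gene of its class, the thinned thymic shares were 13.6% and 9.18%, the splenic 0.406% and 0.751%, and the tumor shares 0.219% and 0.178%, without the gap between the labels in tumors. With 2 UMIs of each class, unthinned, the splenic shares were 0.338% and 0.893% and the tumor shares 1.54% and 3.39%.

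Within the thymus the thinned share was highest in Dntt cells without CD8, at 41.3% (36.4 to 46.4) and 45.9% (42.0 to 49.8). Cells with both Dntt and CD8 gave 30.1% (25.3 to 35.2) and 24.6% (21.6 to 27.7). CD8 cells without Dntt gave 10.8% (7.20 to 15.5) and 11.9% (9.94 to 14.1), the lowest of the 4 classes in both libraries. Cells with neither gave 28.6% (19.6 to 39.0) and 22.8% (17.4 to 28.8). Thymic cells with UMIs of the gamma-delta class alone were few, at 27 and 61 thinned cells, against 661 and 1717 with the alpha-beta class alone.

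**Figure D3:**
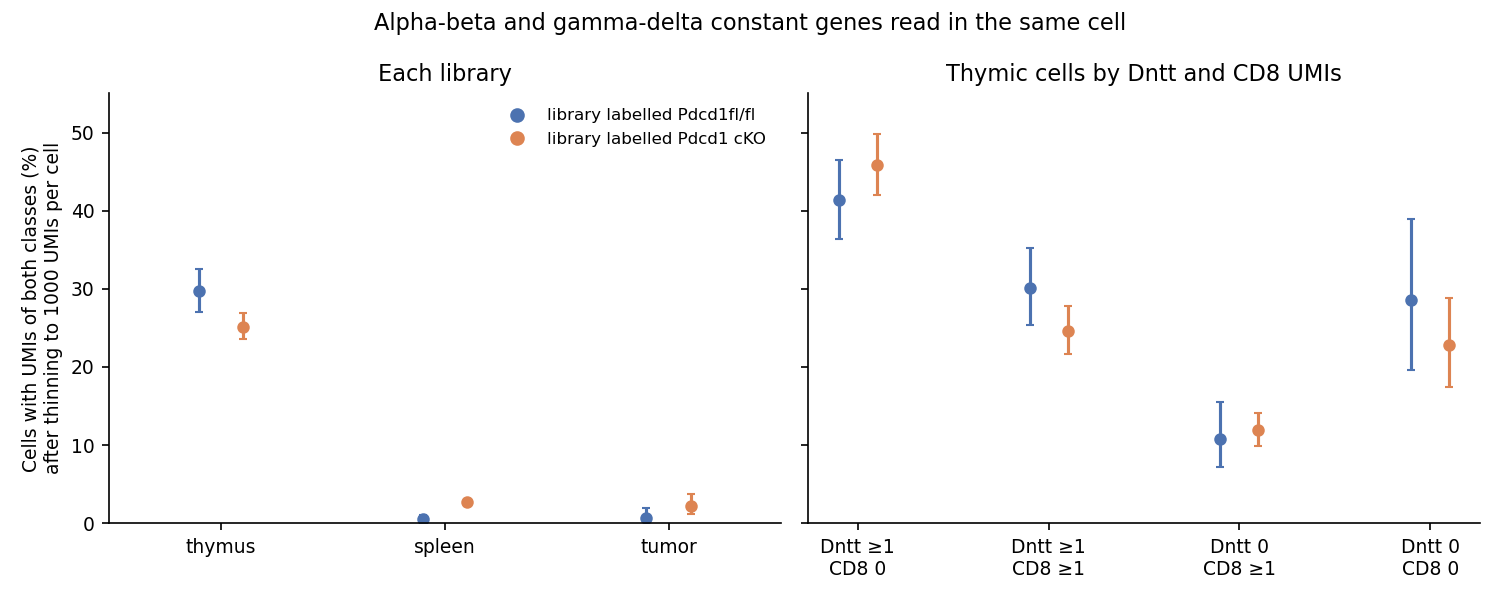
Share of cells, in percent, with UMIs of both an alpha-beta and a gamma-delta constant gene after thinning to 1000 UMIs per cell, by library and by class of thymic cell, with 95% Clopper-Pearson intervals. Thymic libraries lie at 29.7% and 25.2%, splenic and tumor libraries at or below 2.66%, and CD8 cells without Dntt are the lowest thymic class.

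Beta constant UMIs were read in nearly every thymic cell, Trac in fewer. In unthinned thymic cells, Trbc1 or Trbc2 without Trac was read in 62.3% and 43.1%, and beta with Trac in 37.4% and 56.5%. Cells with delta and gamma UMIs but without Trac numbered 239 (22.4%) and 454 (17.2%), of 334 and 648 with both delta and gamma. Trac and Trdc, the pair of which joining of the alpha locus removes the latter from a chromosome, met in 137 and 358 unthinned cells. Trdc was found in 34.2% (29.6 to 39.1) of 400 Trac-positive cells against 49.3% (45.5 to 53.2) of Trac-negative cells under the Pdcd1fl/fl label. Under the Pdcd1 cKO label it was found in 24.0% (21.8 to 26.2) of 1494 against 51.4% (48.4 to 54.3). Over all thymic cells Trdc was less frequent where Trac was read, in both libraries, but not in each class. Among Dntt cells without CD8 the same shares were 51.2% against 54.4% and 54.5% against 58.8%, with overlapping intervals. In cells with both Dntt and CD8 they were 53.1% against 51.5% under the Pdcd1fl/fl label and 32.1% against 61.6% under the Pdcd1 cKO label. In CD8 cells without Dntt they were 8.28% against 25.3%, and 14.02% against 18.3% with overlapping intervals. In cells with neither they were 19.2% (6.55 to 39.4) against 53.8% (41.0 to 66.3), and 21.1% (13.4 to 30.6) against 37.2% (28.9 to 46.2).

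After thinning, Trac and Trdc met in 7 of 142 Trac-positive cells (4.93%) against 16.1% of Trac-negative cells, and in 22 of 578 (3.81%) against 11.8%. In Dntt cells without CD8, 0 of 18 and 0 of 32 thinned Trac-positive cells held Trdc, which allows up to 16.7% and 9.38%, against 19.0% and 19.97% of Trac-negative cells. The other classes gave, after thinning, 13.95% against 17.0% and 4.76% against 11.9% in cells with both Dntt and CD8, and 8.33% against 17.7% and 6.98% against 11.05% in cells with neither. CD8 cells without Dntt gave 0 of 69, which allows up to 4.35%, against 7.60%, and 3.28% against 3.70%. Among CD8 cells without Dntt, unthinned, Trac was present in 33.3% of 36 Trdc-positive cells and 78.7% of 141. In the whole class it was present in 145 of 240 and 792 of 956 cells. The 33.3% thus lies below the share of its class, and the 78.7% lies near it. In spleen the pair met in 5 and 37 unthinned cells, and in tumors in 1 and 1.

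Cells with at least 10 Trdc UMIs numbered 8 and 49 in the thymic libraries and 0 in the other 4. All 8 and all 49 carried Dntt, 7 and 18 carried CD8, and their median depths were 10924.5 and 19458 UMIs. They held 683 and 4412 UMIs of Trbc1 and Trbc2, 12 and 25 of Trac, and 107 and 680 of Trdc. Choosing cells by raw Trdc UMIs favours deep cells, and whether some are doublets was not tested. Thymic cells with Trdc but without Dntt and CD8 numbered 40 (median 3788 UMIs) and 68 (median 3893.5 UMIs). They held 61 and 125 Trdc UMIs, 34 and 29 of Trgc1, 31 and 39 of Trgc2, 514 and 909 of the beta genes, and Trac in 5 and 20 cells.

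Outside the thymus, cells with Trgc2 mostly held alpha and beta UMIs, which most other cells of the tumors did too. The 12 and 42 tumor cells with Trgc2 all carried CD8 UMIs, 11 and 42 of them carried Trac, and they held 600 and 1551 UMIs of the beta genes and 0 of Trdc. Splenic cells with Trgc2 numbered 4 and 106, of which 3 and 87 carried CD8 and 4 and 78 carried Trac, with 0 and 11 Trdc UMIs. Among all cells, CD8 UMIs were found in 863 of 1478 and 3885 of 4928 splenic cells (58.4% and 78.8%) and in 344 of 456 and 512 of 561 tumor cells (75.4% and 91.3%), so that the 87 of 106 lie near the share of the whole library. Beta UMIs were found in 3 of 4 and 95 of 106 splenic and in all 12 and 42 tumor cells with Trgc2, beside 78.1% and 89.9% of all splenic and 93.6% and 98.2% of all tumor cells. Trac was found in 37.5% and 57.1% of all splenic and 67.3% and 87.2% of all tumor cells. The tumor cells with Trgc2 made up 2.63% and 7.49% of the libraries, against 0 of 76 and 0 of 21 melanocyte-list cells, which allow up to 3.95% and 14.3%. As a level, 0 UMIs in those cells allow up to 1.28 and 4.87 CPM. The macrophage-list cells also held 0 UMIs of Trgc2, which allow up to 16.1 and 27.3 CPM. Trgc2 in tumor cells with CD8 was read at 3.30 CPM (2.07 to 4.996) and 11.4 CPM (9.09 to 14.2). The part of free RNA in these levels was not tested.

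The beta constant genes are alternatives on a chromosome, each with its own cluster of joining segments. Trbc1 made up 40.2% (39.6 to 40.9) and 42.7% (42.3 to 43.1) of Trbc1 and Trbc2 UMIs in thymus. Its share was 39.6% (37.8 to 41.3) and 32.8% (32.1 to 33.5) in spleen, and 40.1% (39.2 to 41.0) and 25.7% (25.0 to 26.4) in tumors. As a share of UMIs it was alike in the 3 tissues under the Pdcd1fl/fl label, and under the Pdcd1 cKO label it was lower in spleen than in thymus and lowest in tumors. Counted instead as cells with Trbc1 among cells with UMIs of only 1 of the beta genes, it was 12.2%, 34.5% and 22.6% in thymus, spleen and tumor under the Pdcd1fl/fl label and 12.7%, 22.2% and 6.59% under the Pdcd1 cKO label. That count depends on depth, and after thinning it was 29.4%, 36.3% and 29.2%, and 33.1%, 27.5% and 14.6%, so that only the low value of the tumor labelled Pdcd1 cKO held its place in each of these counts. Tumor cells with CD8 UMIs gave 40.3% and 25.6%. By thymic class it ran from 39.5% and 45.7% in Dntt cells without CD8, over 40.3% and 41.9% in cells with both, to 39.8% and 38.9% in CD8 cells without Dntt. Cells with neither gave 46.3% (43.3 to 49.3) and 50.2% (48.2 to 52.2). After thinning, the shares in the same order of classes were 43.1%, 38.7%, 39.1% and 48.0% under the Pdcd1fl/fl label and 50.1%, 43.2%, 39.2% and 47.8% under the Pdcd1 cKO label, so that the highest class of the latter changed.

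Cell by cell, UMIs of both Trbc1 and Trbc2 were found in 83.6% and 87.0% of thymic, 26.2% and 39.7% of splenic, and 68.4% and 82.0% of tumor cells before thinning. These shares follow depth, and after thinning they were 42.9% and 40.5%, 15.97% and 23.3%, and 23.0% and 29.6%. Among unthinned cells with at least 10 beta UMIs, 21.4% and 16.2% of 700 and 1764 thymic cells had at least 90% of them from Trbc2, and 1.86% and 2.21% from Trbc1. In tumors 27.3% and 24.2% of 271 and 447 such cells were of the former kind, and 0.738% and 0.224% of the latter. In spleen the shares were 37.0% and 33.7%, and 14.8% and 3.74%, of 27 and 187 cells. Cells dominated by Trbc2 thus outnumbered cells dominated by Trbc1 in each library.

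**Figure D4:**
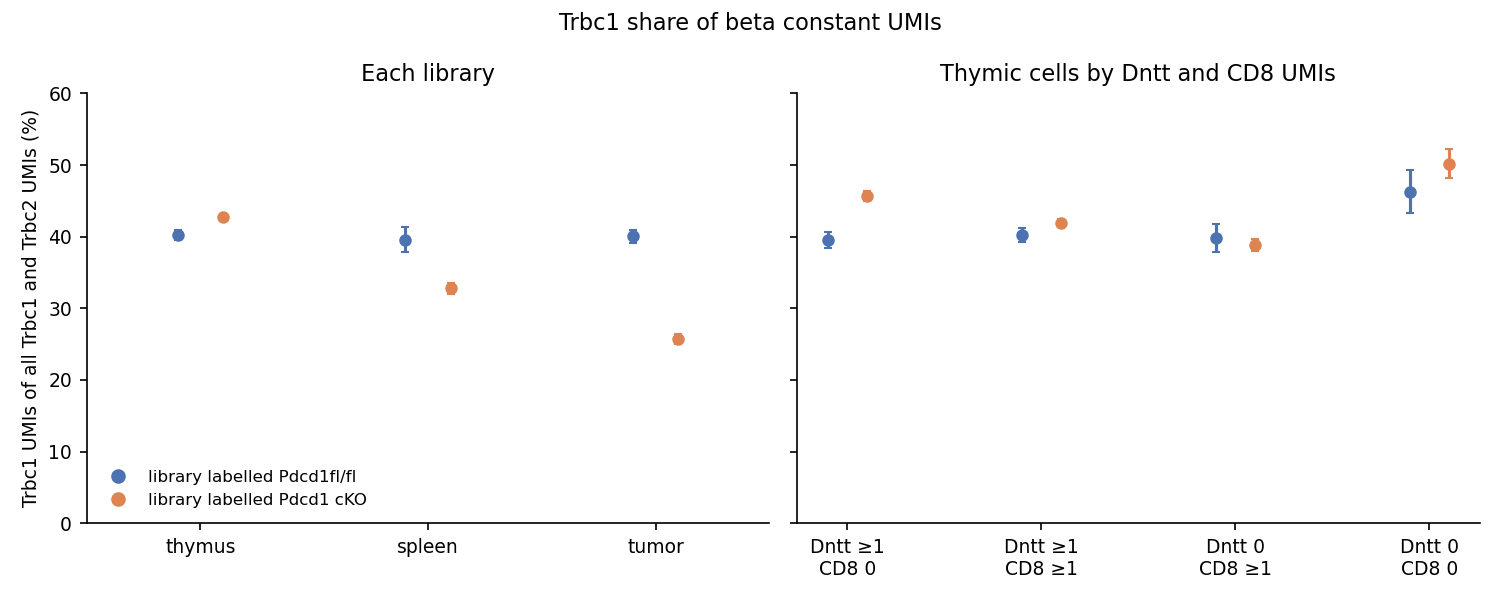
Trbc1 UMIs as a percent of all Trbc1 and Trbc2 UMIs, by library and by class of thymic cell, with 95% Clopper-Pearson intervals. The libraries labelled Pdcd1fl/fl lie between 39.6% and 40.2%, and those labelled Pdcd1 cKO run from 42.7% in thymus over 32.8% in spleen to 25.7% in tumor.

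How far UMIs of Trbc1 and Trbc2 can be told apart depends on where a read lies, which the sequences show. In GENCODE vM39 on GRCm39, Trbc1 (ENSMUSG00000076490) lies at chr6:41515152-41516815 and Trbc2 (ENSMUSG00000076498) at chr6:41523664-41525286, both on the plus strand. Their coding parts of 518 bases were identical at 495 bases (95.6%), and the parts after the coding sequence at 55.1% of alignment columns. Of stretches of 91 bases, 201 of 647 of Trbc1 (31.1%) and 201 of 602 of Trbc2 (33.4%) were found unchanged in the other gene, and 32 of the last 400 of each. The annotation release and the treatment of reads that fit several genes were not given in the sources used here. Exon 1 differed at 1 of 375 bases and exon 3 at 15 of 107, and a stretch of each is shown with differing bases in capitals, exon 1 at chr6:41515382-41515441 and chr6:41523894-41523953 and exon 3 at chr6:41516171-41516260 and chr6:41524714-41524803, plus strand.
Trbc1 exon 1: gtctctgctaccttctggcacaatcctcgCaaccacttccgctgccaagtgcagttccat
Trbc2 exon 1: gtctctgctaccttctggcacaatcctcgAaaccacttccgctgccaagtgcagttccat
Trbc1 exon 3: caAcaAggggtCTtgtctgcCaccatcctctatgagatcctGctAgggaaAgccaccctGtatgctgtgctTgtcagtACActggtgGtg
Trbc2 exon 3: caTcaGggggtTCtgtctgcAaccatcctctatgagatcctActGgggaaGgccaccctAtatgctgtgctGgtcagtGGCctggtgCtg

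The gamma constant genes lie on chromosome 13, Trgc1 (ENSMUSG00000076749) at chr13:19398273-19401194 and Trgc4 (ENSMUSG00000076757) at chr13:19528728-19536926 on the plus strand and Trgc2 (ENSMUSG00000076752) at chr13:19488819-19491721 on the minus strand. Trgc1 and Trgc2 were 94.6% identical in the coding part and 93.5% after it, whereas Trgc1 and Trgc4 were 72.2% identical in the coding part. Stretches of 91 bases found unchanged in another gamma gene were 50 of 834 for Trgc1 (6.00%), 19 of 824 for Trgc2 (2.31%) and 0 of 895 for Trgc4. Trgc4, which shares no such stretch, followed the same order over the thymic classes as Trgc1 and Trgc2. A part of exon 1, at chr13:19398417-19398476, chr13:19491518-19491577 (minus strand) and chr13:19528872-19528931, is shown with bases that differ among the 3 genes in capitals.
Trgc1 exon 1: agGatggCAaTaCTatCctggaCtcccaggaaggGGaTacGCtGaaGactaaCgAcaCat
Trgc2 exon 1: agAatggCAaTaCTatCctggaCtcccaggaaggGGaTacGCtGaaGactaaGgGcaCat
Trgc4 exon 1: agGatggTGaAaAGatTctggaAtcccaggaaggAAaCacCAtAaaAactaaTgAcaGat

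Trac (ENSMUSG00000076928, chr14:54457978-54461663) and Trdc (ENSMUSG00000104876, chr14:54380308-54386325), both on the plus strand, were 50.5% identical in the coding part. None of the 845 stretches of Trac or the 3775 of Trdc occurred in another constant gene. Reads were not examined, and how UMIs of both genes came to be read in the same cell was not tested.

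Variable segments, which the choice of members did not use, gave few UMIs in this assay. Alpha segments (130 features whose symbol starts with Trav) summed to 19.1 and 19.5 CPM in thymus, 40.5 and 33.3 CPM in spleen, and 3.94 and 8.96 CPM in tumors. Within the thymus they ran from 11.8 and 8.59 CPM in Dntt cells without CD8 to 39.5 and 34.3 CPM in CD8 cells without Dntt, the same order as Trac. Gamma segments (7 features) gave 65 and 380 UMIs in thymus, of which 54 and 325 were Trgv2, then 0 and 13 in spleen and 0 and 2 in tumors. In Dntt cells without CD8 they were read at 13.9 CPM (9.58 to 19.6) and 32.0 CPM. CD8 cells without Dntt held 2.08 CPM (2 UMIs, 0.25 to 7.50) and 7.22 CPM (37 UMIs). The order was that of the gamma constant genes, though the 2 UMIs lie under the floor of 3 UMIs (3.12 CPM in that class). Beta segments (35 features) summed to 11.3 and 22.7 CPM in thymus, 11.3 and 13.8 CPM in spleen, and 2.35 and 3.53 CPM in tumors. Delta segments (6 features) had 5 and 13 UMIs in thymus, 2 and 9 in spleen, and 1 and 0 in tumors. The most abundant were Trav6-7-dv9 (22 UMIs) and Trav6-6 (36 UMIs) among features named Trav and Trbv12-2 (14 UMIs) and Trbv12-1 (96 UMIs) for beta in the thymic libraries. By its symbol Trav6-7-dv9 is also a delta variable segment, so its UMIs cannot be assigned to the alpha chain alone. In Dntt cells without CD8 under the Pdcd1fl/fl label it gave 9 of 28 UMIs named Trav.

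Across 12 points, the 8 thymic classes and the 4 splenic and tumor libraries, Trdc, Trgc1, Trgc2 and Trgc4 followed each other with Pearson correlations of 0.95 to 0.99 in log2 CPM. Trac ran against the other 6 members, at -0.39 with Trbc2 to -0.57 with Trgc1, and Trbc1 followed Trdc at 0.98. The points share libraries and mice, and the thymic points are 8 of 12, so these values describe the pattern only. Of 12922 genes, those most like Trac were Ctsw (0.98), Cd2 (0.97) and Shisa5 (0.97), and those most like Trbc2 were Thy1 (0.95), Parvg (0.95) and Gzma (0.93). Trbc1 was nearest to Khdrbs1, Rpap3 and Stap1 (each 0.99), and Trdc to Mtf2, Snrpb2 and Tnfrsf8 (each 0.99). For Trgc1 these were Prss57, Nelfa and Ly6d (each 0.99), for Trgc2 Ly6d (0.99), Fkbp5 (0.98) and Cd24a (0.98), and for Trgc4 Txlna (0.99), Brd3 (0.98) and Tnfrsf8 (0.98).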

How the data were processed

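The authors aligned PIPseq reads to GRCm39 and deposited raw UMI counts per gene and cell barcode for each of the 6 libraries, and these counts were used without further normalization. The authors' filter (500 genes, 1000 UMIs, 20% mitochondrial) was applied again. For each library and thymic class, UMIs of its cells were added up and scaled to CPM. Cells were thinned at random to 1000 UMIs for shares of cells. Genotype labels were compared within a tissue, and thymic classes within a library, without tests. Named were Pdcd1, all 7 members, the highest and lowest gene of each pathway list, Trgc3, the most abundant variable segments, and for each member the 3 genes with the highest Pearson correlation of log2(CPM + 1). Zbtb16, Cd247, Ptcra, Rag1, Klf2, S1pr1 and Cd24a were also named as genes past 2-fold, after their values were seen. Members and lists were chosen with earlier results of these data known. Cd163l1 was matched as Scart1 through its RefSeq synonym. Sequences were read from GRCm39 with GENCODE vM39. The alternatives were other cell filters, scalings, thinning depths, folds and class limits. Python 3.11.15, numpy 2.4.6, scipy 1.17.1, pandas 2.3.3 and matplotlib 3.10.9 were used, and the code was tested on simulated data.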

Additional observations from a re-analysis of the deposited data

Results flagged for a closer look

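Some members had log2 ratios between the genotype labels of opposite sign in different tissues, with intervals on either side of 0, and none of these differences was tested. The ratio of Trbc1 was higher in spleen than in thymus by 0.20, a difference whose sign in each tissue changed with the scaling. The ratio of Trbc2 was higher than in thymus by 0.77 in spleen and by 1.12 in tumor. The ratio of Trgc4 was higher in spleen than in thymus by 2.81, with 3 UMIs in the splenic library labelled Pdcd1fl/fl. A further gamma constant gene outside the set, Trgc3, had 15 UMIs in the thymic library labelled Pdcd1fl/fl and 41 in the one labelled Pdcd1 cKO, above the 3 UMIs that a count of 0 allows.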

How the results depend on the processing

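Of 139 alternative values of the genotype ratios of members, 79 lay within the interval of the reported value and the rest outside it. The sign changed in 19, of which 11 belong to reported values whose interval leaves out 0 and 8 to values whose interval holds 0 (Trgc1 and Trgc2 in thymus and Trbc1 in tumor). For the former, within thymic cells with Dntt and without CD8 the ratios were -0.19 for Trac, 0.16 for Trbc1 and 0.20 for Trdc, and within CD8 cells without Dntt that of Trgc4 was 0.15. Scaled by the median of gene ratios, Trbc1 gave 0.00 in thymus (0.00364589 before rounding) and -0.047 in spleen. Without mitochondrial, ribosomal protein and Malat1 UMIs it gave 0.11 and -0.010. The stricter cell filter gave -0.29 for Trbc1, -0.42 for Trgc2 and -1.27 for Trgc4 in spleen. It left 81 cells there under the Pdcd1fl/fl label, with at most 9 UMIs of Trgc2 and 3 of Trgc4. For all these changes of sign the cause was not tested. In thymus 1 member in place of 0, Trac, passed at 1.5-fold, with the stricter filter, without mitochondrial, ribosomal protein and Malat1 UMIs, and within cells with neither Dntt nor CD8. The other 21 of 25 counts of members stayed within 1.5 times the reported count, but only 14 of 25 held the same members with the same signs. In spleen the stricter filter left Trdc higher and Trgc4 lower past 2-fold, in place of Trgc1, Trgc2 and Trgc4 higher, and Trgc1 dropped out among CD8 cells, where its count of 0 was set to the floor, and in the mean over cells. Trdc in spleen and Trbc2 in tumor were added at 1.5-fold, and in tumor Trbc2 with the median of gene ratios. The tumor count in the mean over cells takes in Trgc4, whose 3 and 3 UMIs allow no fold, and is 1 of the 11 that differ for that reason alone. The thymic shares of cells with both receptor classes were 68.6% and 62.0% unthinned, 50.6% and 40.5% with 2 UMIs of each class, 14.6% and 12.3% when thinned to 500 UMIs, 13.6% and 9.18% with Trdc alone, and 22.2% and 17.7% among cells with CD8 UMIs. Without the deepest 10% of cells the latter library gave 23.3%, and the cause was not tested. Of 28 alternative ratios between thymic classes, 20 moved by less than the interval and 8 by more, none with a change of sign. Of 12 alternative Trbc1 shares, 6 moved by more than the interval, all as shares of cells with UMIs of 1 of the beta genes. The tumor count of receptor list genes higher by 2-fold was 0 in place of 7 among cells with CD8 UMIs, an alternative chosen after the data were seen. No value could be had for Trgc1 in spleen with the stricter filter or as a mean over cells or for Trdc in CD8 cells of tumors, and no alternative is given for Trgc1 and Trgc4 in tumors, whose counts allow no fold. With 1 library per group no library could be left out. Depth limits the splenic and tumor values of the delta and gamma genes, of which a library held 0 to 129 UMIs each.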
